A study of Mus musculus with 4 samples.

Results

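The genes described here are 9 protein-coding genes of B16F10 mouse melanoma cells: Gnao1, Chn2, Acsf3, Rapgef2, Tasp1, Tns1, Mylk3, Prune2 and Igsf3. They stand among 21883 protein-coding genes and were chosen by a measured value, the number of accessible regions near their ends that were called in control cells and in neither library of Arid1a-targeted cells. These values are therefore given as a description, with no test. A region belonged to a gene when it overlapped the gene body extended by 50 kb on each side, and 245 of the 103629 regions of the 4 peak lists did so. A region is called missing below when both control lists and neither sgArid1a list held a peak there, and gained in the reverse case.

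The cells were grown in vitro and carried either a scrambled guide RNA (sgScramble, n = 2 libraries) or a guide RNA against Arid1a (sgArid1a, n = 2 libraries). Open chromatin was measured by ATAC-seq with the Omni-ATAC protocol and 50000 cells per Tn5 reaction. Both groups are the same line, and the labels do not say whether the guided cells were a pool or a clone. The labels do not tie the replicates to separate cultures. The sgArid1a lists were shorter, with 65353 peaks in replicate 1 and 71255 in replicate 2, than the control lists of 82319 and 85613, and sequencing depth is unknown. All 10 melanocyte markers examined had a peak within 1 kb of a gene end in all 4 lists, and of 5 markers of other cells 4 had none in any list and 0 had one in all.

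ATAC-seq marks DNA that the Tn5 transposase can enter, which is mostly promoters and enhancers. ARID1A is a subunit of the BAF (SWI/SNF) complex, which slides and evicts nucleosomes and is known for keeping enhancers accessible. The 9 genes belong to no common pathway. Gnao1 encodes a G protein alpha subunit that couples receptors to ion channels and to inhibition of adenylyl cyclase. Rapgef2 activates Rap GTPases and Chn2 (beta-chimaerin) inactivates Rac. Tns1 (tensin 1) ties integrin adhesions to actin, Mylk3 is the myosin light chain kinase of heart muscle, and Igsf3 is a membrane protein of the immunoglobulin superfamily. Acsf3 encodes the mitochondrial malonyl-CoA synthetase, Tasp1 the protease that cleaves the histone methyltransferase KMT2A, and Prune2 a protein with a BCH domain.

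The 5 start sites below show how the sequence at the genes' promoters differed beside their calls. They are RefSeq sequences of GRCm38.p6, from 250 bases before to 50 after the annotated start, and capitals mark CG dinucleotides.
Chn2, upstream start (chr6:54039682-54039981, plus strand, a peak in all 4 lists): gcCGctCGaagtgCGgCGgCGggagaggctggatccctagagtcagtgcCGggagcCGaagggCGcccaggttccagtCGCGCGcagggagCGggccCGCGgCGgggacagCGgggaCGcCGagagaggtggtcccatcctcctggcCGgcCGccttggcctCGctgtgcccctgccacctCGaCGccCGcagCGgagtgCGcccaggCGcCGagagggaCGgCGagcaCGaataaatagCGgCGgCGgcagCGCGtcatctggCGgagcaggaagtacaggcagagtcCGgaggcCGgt
Chn2, downstream start (chr6:54272572-54272871, plus strand, a peak in all 4 lists): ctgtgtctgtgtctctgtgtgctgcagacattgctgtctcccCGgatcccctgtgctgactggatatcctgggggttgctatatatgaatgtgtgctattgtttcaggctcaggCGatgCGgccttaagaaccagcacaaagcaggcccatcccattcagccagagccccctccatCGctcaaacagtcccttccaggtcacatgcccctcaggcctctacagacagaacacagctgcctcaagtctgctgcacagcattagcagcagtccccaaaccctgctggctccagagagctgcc
Mylk3, upstream start (chr8:85380992-85381291, minus strand, no peak in any list): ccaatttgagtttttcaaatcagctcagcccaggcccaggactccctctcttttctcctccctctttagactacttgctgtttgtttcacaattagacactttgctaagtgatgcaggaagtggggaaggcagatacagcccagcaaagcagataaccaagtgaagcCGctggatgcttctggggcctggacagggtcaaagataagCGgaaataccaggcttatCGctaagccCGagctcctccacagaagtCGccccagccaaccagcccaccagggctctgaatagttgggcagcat
Mylk3, downstream start (chr8:85365275-85365574, minus strand, a peak in sgScramble replicate 1 alone): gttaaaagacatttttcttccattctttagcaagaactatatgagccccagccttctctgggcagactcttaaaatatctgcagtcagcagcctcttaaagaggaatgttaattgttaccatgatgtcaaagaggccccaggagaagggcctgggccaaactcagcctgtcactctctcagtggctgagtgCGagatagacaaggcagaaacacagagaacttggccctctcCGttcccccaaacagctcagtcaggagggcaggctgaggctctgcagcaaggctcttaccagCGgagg
6030407O03Rik, a long non-coding RNA gene beside Tns1 (chr1:73864417-73864716, minus strand, wholly inside a missing region): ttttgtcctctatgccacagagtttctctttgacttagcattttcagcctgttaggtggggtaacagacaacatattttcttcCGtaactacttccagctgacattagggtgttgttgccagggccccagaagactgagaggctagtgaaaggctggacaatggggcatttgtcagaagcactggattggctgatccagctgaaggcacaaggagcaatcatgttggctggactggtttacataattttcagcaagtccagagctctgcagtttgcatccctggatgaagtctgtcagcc
The upstream start of Chn2 held 39 CG dinucleotides and 73.3% G and C. The other start sites printed held far fewer: 4 at the downstream start of Chn2, 5 and 3 at the Mylk3 starts and 1 at 6030407O03Rik. The median over 21262 start sites of protein-coding genes was 13 CG dinucleotides and 56.3% G and C.

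The table of start sites holds 14 for the 9 genes, of which 10 had a peak in all 4 lists, 1 in 1 list and 3 in none. Among the other starts with a peak in every list were those of Gnao1 (42 CG dinucleotides), Tns1 (37), Igsf3 (35), Prune2 (28), Tasp1 (21) and Acsf3 (15). The 2 Rapgef2 starts of that table, whose windows overlap each other, held only 4 and 8 CG dinucleotides and also had a peak in all 4 lists. The starts with no peak were the upstream start of Mylk3 and 2 internal starts of Chn2 (54264608 to 54264907 with 7, and 54268906 to 54269205 with 2). Short motif letters were searched on both strands of the 300 bases. TGANTCA (AP-1), TGTGGT (RUNX) and TATAAA were in 0 of the 14, against 6.99%, 15.0% and 12.6% of all 21262. CCAAT was in 6 of 14 (38.2% of all), GGAAGT (ETS) in 4 (24.8%), CATGTG (M box) in 3 (11.5%), GGGCGG (GC box) in 3 (46.2%), GGAATG (TEAD) in 2 (13.6%), AACAAT (SOX) in 2 (9.05%) and CACGTG (E box) in 1 (7.84%). These are matches of letters, and no sequence of the missing regions other than the start site printed above was used.

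Over the 9 genes, both sgScramble lists held 189 regions, and 61 of these were missing in sgArid1a (32.3%). The share over all such regions of the genome was 12.9%, and it was 12.0% over those inside or within 50 kb of a protein-coding gene. The contrast chose the genes, so the gap between these shares is not a result. A further 30 regions (15.9%, against 14.8% over all regions) were in 1 sgArid1a list, and 98 (51.9%, against 72.4%) were in all 4. Of those 30, 8 were in sgArid1a replicate 1 and 22 in replicate 2. The shorter replicate 1 list held 26.7% of them, beside 30.8% over all regions. Gained was 1 region of the 101 in both sgArid1a lists, at Chn2 (0.990%, 95% Clopper-Pearson interval for counting error 0.0251% to 5.39%, against 1.39% over all regions). The remaining 55 regions had other patterns, 43 of them in a single list.

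**Figure D1:**
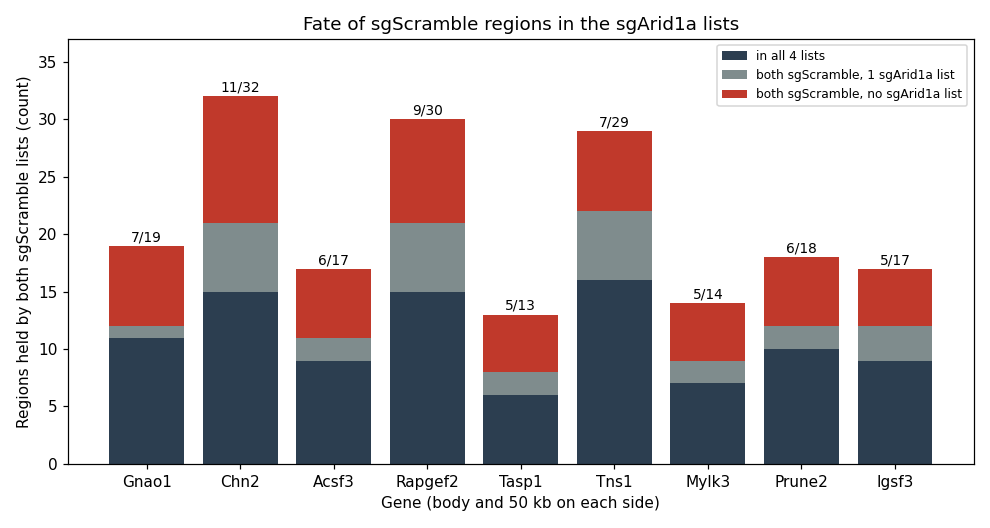
Stacked bars give, for each gene, the number of regions held by both sgScramble lists, divided into those in all 4 lists (dark), in 1 sgArid1a list (grey) and in no sgArid1a list (red). The labels give missing regions over all of them, from 7 of 29 at Tns1 to 5 of 13 at Tasp1 in share. The order of the genes changes when 1 library is left out, as the text gives.

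Every sgScramble list held more regions than every sgArid1a list at each of the 9 genes, a direction that the choice of the genes favours and that is given as a description. In all, sgScramble replicates 1 and 2 held 209 and 211 of the 245 regions, and sgArid1a replicates 1 and 2 held 118 and 137. Peaks covered 178.6 and 177.5 kb in the sgScramble lists and 98.5 and 122.1 kb in the sgArid1a lists. The sgArid1a mean was 62.0% of the sgScramble mean, where it was 77.7% over all regions of the genome, and nothing is read from that gap, since the same contrast chose the genes. The mean covered length of a region held was 854 and 841 bp in the sgScramble lists and 835 and 891 bp in the sgArid1a lists. The shorter total went with fewer regions and, at the regions that all lists held, with shorter peaks. In those 98 regions the sgArid1a coverage was 86.1% of the sgScramble coverage, close to the 88.0% over all regions common to all lists. That ratio was lowest at Tns1 (67.9%) and highest at Tasp1 (102.9%). A bulk library cannot tell fewer cells with an open site from a less open site in each cell.

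**Figure D2:**
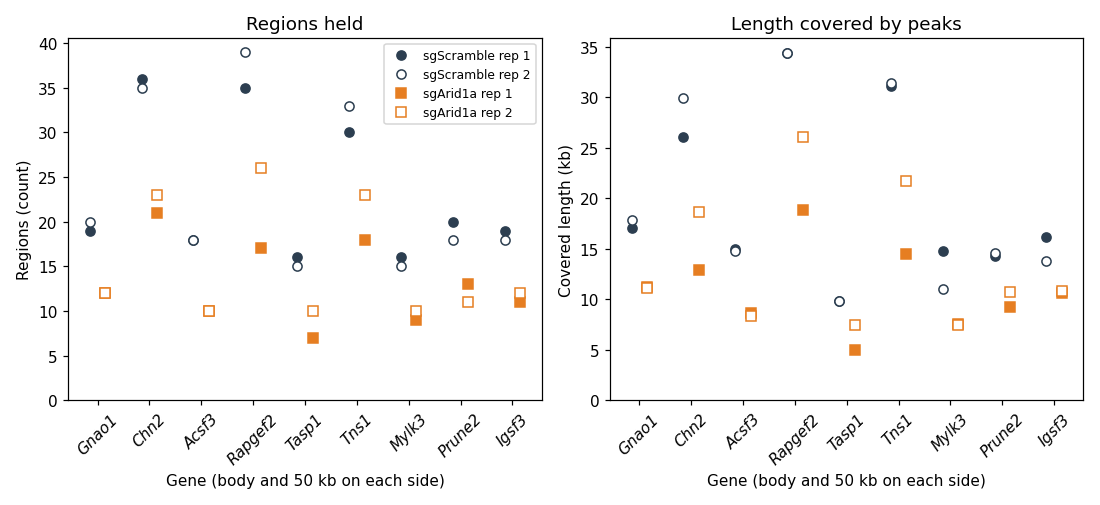
Points give, for each gene and each of the 4 lists, the number of regions held (left) and the length covered by peaks in kb (right); circles are sgScramble and squares sgArid1a, filled for replicate 1 and open for replicate 2. No square reaches a circle of its gene in either panel, and in regions held the 2 squares lie farthest apart at Rapgef2, with 17 and 26.

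Missing regions were inside genes and in their flanks and at none of the gene starts. Of 120 gene-body regions in both sgScramble lists, farther than 1 kb from the gene's own ends, 41 were missing (34.2%). In the flanks 10 of 26 upstream and 9 of 32 downstream regions were missing (38.5% and 28.1%). Inside the genes, 19 of 71 regions were missing up to the midpoint and 22 of 57 beyond it. These counts include the start regions of Gnao1, Acsf3, Tasp1, Tns1, Prune2 and Igsf3 and the end regions of Acsf3 and Igsf3. No start region was missing, which lowers the share up to the midpoint. By gene the split went either way: Chn2 had 5 of 13 and 3 of 10, Rapgef2 6 of 18 and 2 of 8, Tasp1 1 of 6 and 2 of 3 and Igsf3 1 of 7 and 1 of 3. In Mylk3 it was 3 of 4 and 2 of 2, in Acsf3 0 of 1 (its start region) and 2 of 4, and the other 3 are given below. Within 1 kb of the annotated start, 8 genes had a region and all 8 were in every list. The ninth, Mylk3, had no region there in any list. Within 1 kb of the other end, 1 of 3 regions in both sgScramble lists was missing, at Gnao1. Over all genes, 3.08% of regions within 1 kb of a gene end and 15.1% of those farther away were missing, and here it was 1 of 17 and 60 of 172.

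**Figure D3:**
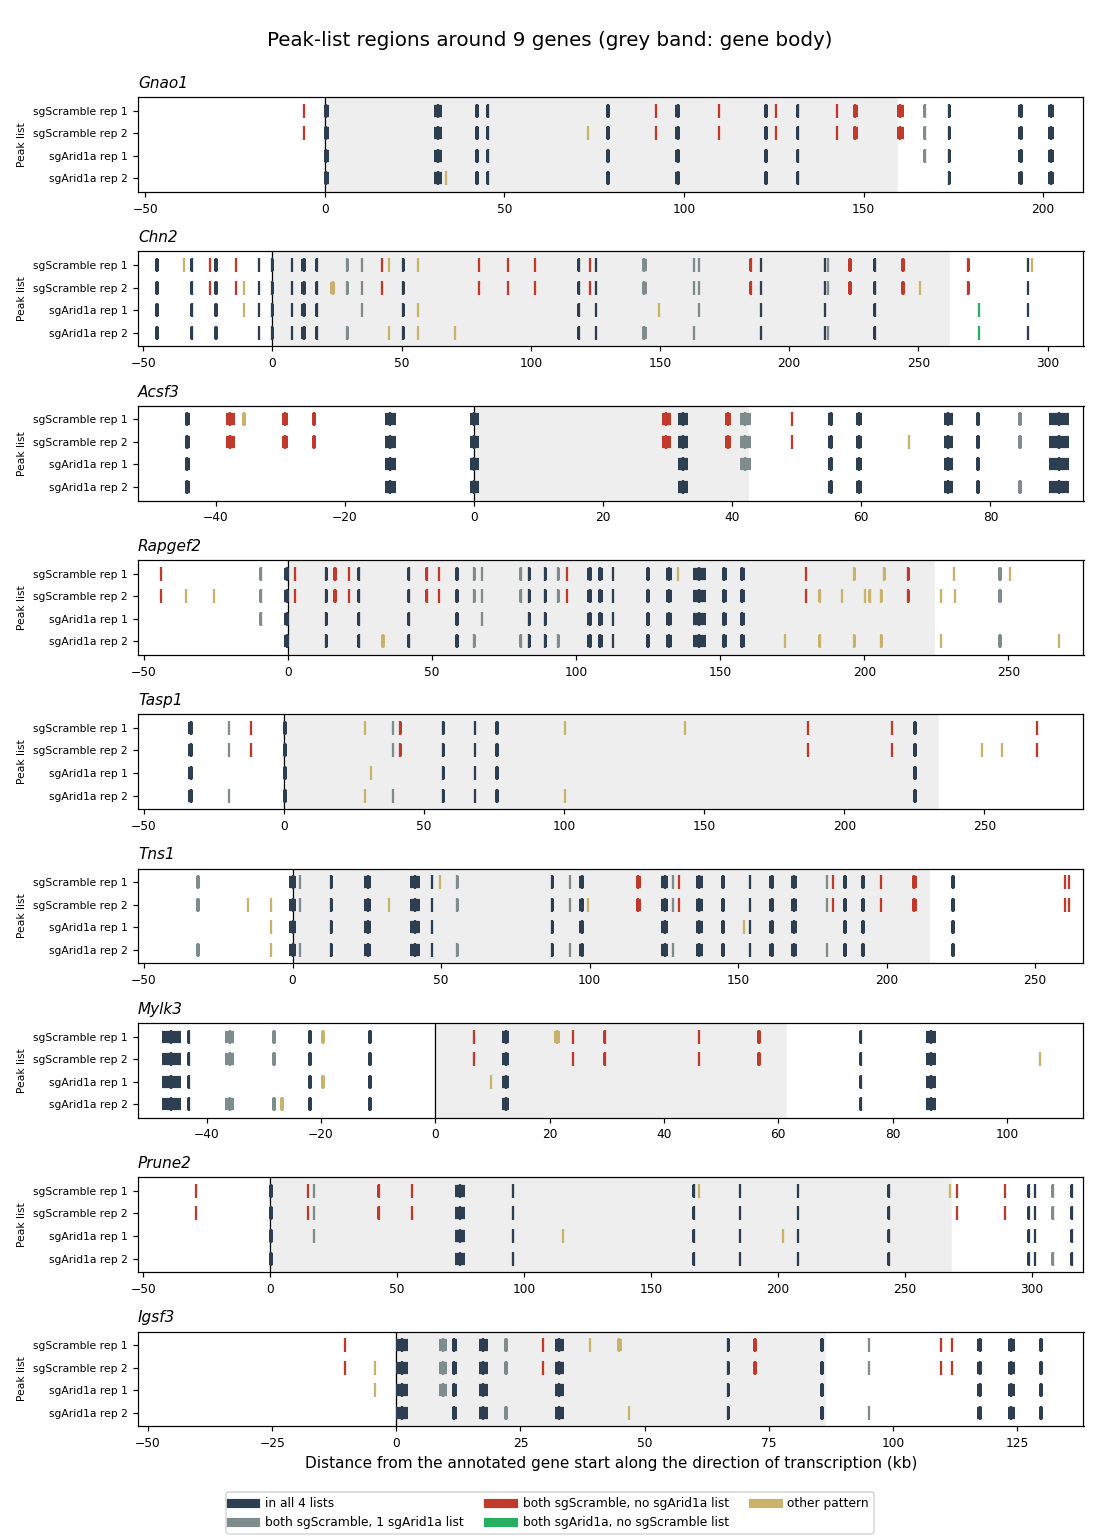
Each panel shows a gene with 50 kb on each side, by distance in kb from the annotated start along the direction of transcription; rows are the 4 lists, marks are regions drawn to their width with a minimum tick, and the grey band is the gene body. Colours are as in the key, with red for the missing regions, which by definition stand in the upper 2 rows. Red marks lie inside all 9 gene bodies, and the mark at distance 0 is dark in every panel but that of Mylk3, which has none.

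Gnao1 lies on chromosome 8 at 93810153 to 93969388, plus strand. Its window held 21 regions, 19 of them in both sgScramble lists, of which 7 were missing, 11 were in all 4 lists and 1 was in sgArid1a replicate 1 but not replicate 2. The lists held 19 and 20 regions in sgScramble and 12 and 12 in sgArid1a. Up to the midpoint of the gene 0 of 5 regions, the start region among them, were missing, and beyond it 5 of 8. The strongest of these by mean percentile, 125.6 kb from the start at 93935401 to 93936072, stood at percentiles 61.1 and 18.1 of the authors' fold within sgScramble replicates 1 and 2 (100 is the strongest peak of a list). Regions at 92.2 kb (93902143 to 93902661, percentiles 15.5 and 7.06) and 109.7 kb (93919540 to 93920232, 11.0 and 40.4) were also missing. The last 3 regions toward the 3′ end were missing in a row. These were 93952470 to 93953089 (28.9 and 37.8), 93957172 to 93958472 (10.2 and 7.28) and 93969466 to 93971299, a 1834 bp region starting 78 bp past the gene's end (8.87 and 5.44). The other was 5.7 kb upstream, at 93804238 to 93804621 (14.6 and 49.8). Between them stood regions of all lists, among them 93888342 to 93889530 in the gene body (91.7 and 91.2) and the start region 93809785 to 93811388 (75.1 and 79.4).

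Rapgef2 (chromosome 3, 79062511 to 79286545, minus strand) had the most regions, 47, and the most that only 1 list held, 13. Both sgScramble lists held 30, of which 9 were missing, 15 were in all 4 lists and 6 in 1 sgArid1a list. Many of its regions were weak by fold: 16 of the 47 stood below the 5th percentile in every list that held them. The other 8 genes had 5 such regions between them. Low fold did not always go with a low −log10 q. One of the 16, 79177316 to 79178950, was in all 4 lists, with 8.48 and 10.5 in sgScramble. Missing regions included 79283696 to 79284273, 2.6 kb from the start, at percentiles 0.535 and 0.182, and 79269457 to 79271036 (0.797 and 2.18). Both are near the floor of their lists by fold. Their −log10 q values were 4.42 and 2.72 at the first and 1.88 and 3.13 at the second. In the gene body 4 more stood between percentiles 1.49 and 22.7, at 79237837 to 79238975, 79233792 to 79234406, 79106573 to 79107093 and 79070715 to 79071756. The region 21.1 kb from the start, 79265273 to 79265697, had only percentiles of 14.7 and 43.0 by fold and yet −log10 q values of 12.3 and 21.0. The others were 79189576 to 79190212 (25.5 and 38.3) and 79330408 to 79331078, 44.2 kb upstream (38.3 and 44.0), which lies nearest to Gm17359. The strongest region, 79244314 to 79245106 at 98.2 and 97.1, and the start region, 79286140 to 79287762 at 84.7 and 81.0, were in all 4 lists. The start region also overlaps the non-coding gene 6430573P05Rik and a start site of that gene. The 2 Rapgef2 start sites of the promoter table lie farther along the gene. They are inside a 4446 bp region of all lists (79141654 to 79146099) that ranked below the 5th percentile by fold in each.

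Chn2 (chromosome 6, 54039932 to 54301812, plus strand) had 11 of 32 regions missing, the highest count of the 9 with all libraries. Without sgScramble replicate 1 it had 13 and Rapgef2, with 9 before, had 15, and without sgScramble replicate 2 both had 13. The other regions of both sgScramble lists were 15 in all 4 lists and 6 in 1 sgArid1a list, and the window held 42 regions in all. The sgScramble lists covered 26.1 and 29.9 kb and the sgArid1a lists 12.9 and 18.7 kb. The strongest missing region was 24.2 kb upstream, at 54015374 to 54016043, with percentiles 57.9 and 63.6, and a second upstream one stood at 54025571 to 54025955 (40.0 and 43.5). A row of 3 in the gene body spanned 80.0 to 101.5 kb from the start: 54119654 to 54120240 (33.5 and 27.6), 54130563 to 54131369 (54.5 and 25.3) and 54141166 to 54141688 (29.1 and 26.8). Between the regions at 50.7 and 118.5 kb, the only region in both sgArid1a lists was 54095815 to 54096839, which 1 sgScramble list held too. In that stretch sgArid1a replicate 2 alone held 54110193 to 54111019. Further missing regions were 54082149 to 54082843, 54162410 to 54162946 and 54224525 to 54225575, each below the 30th percentile in both lists. The region 54262790 to 54264283 (30.8 and 40.2) ended shortly before the start site window at 54264608 to 54264907. The other 2 were at the 3′ side, at 54283097 to 54284635 (22.6 and 50.9) and, past the end, at 54308593 to 54309782 (30.5 and 24.9). The gained region was the next one downstream, at 54313173 to 54313723, with percentiles of 27.5 and 15.7 within the sgArid1a lists. The start region, 54039220 to 54040636, stood at 93.1 and 96.4 and was in all 4 lists. The 1 region of both sgScramble lists nearest to Prr15, past the 3′ end, was in all 4 too.

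Tns1 (chromosome 1, 73910232 to 74124548, minus strand) had 7 of 29 regions missing (24.1%), with 16 in all lists. This was the lowest share of the 9 with all libraries, but not without sgArid1a replicate 2, where it was 13 of 29 (44.8%), nor without sgScramble replicate 1, where it was 10 of 33 (30.3%) and Igsf3 had 5 of 18 (27.8%). Its 6 regions in 1 sgArid1a list were all in that of replicate 2, and the sgArid1a lists covered 14.4 and 21.7 kb against 31.2 and 31.4 kb in sgScramble. Up to the midpoint 0 of 10 regions, the start region among them, were missing, and beyond it 5 of 15. Those 5 were 74007235 to 74008918, 73994014 to 73994503, 73942341 to 73942597, 73926337 to 73926717 and 73914298 to 73915976. The fourth was the strongest of them, at percentiles 46.7 and 66.2, and the third was the narrowest missing region of all, 257 bp. The other 2 lay together past the 3′ end, about 260 kb from the start. One of these, 73864231 to 73864891, stood at 75.2 and 79.2 and holds the start of 6030407O03Rik whose sequence is printed above, and its neighbour 73862748 to 73863261 (26.8 and 32.6) lies inside the same non-coding gene. At the start of Tns1 a 2395 bp region (74123346 to 74125740), which also overlaps Rufy4, was in all lists, and the strongest region of the gene, 74111044 to 74112079 at 94.7 and 86.7, was too. The 6 regions in both sgScramble lists nearest to Rufy4 were the start region of Tns1 and regions of its body, counted above. Of these and the 1 nearest to Cxcr2, a chemokine receptor gene, 0 were missing, beside 12.9% over all regions. The share was 3.08% over regions within 1 kb of a protein-coding gene end, as the start region is.

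Mylk3 (chromosome 8, 85324928 to 85386340, minus strand) had 5 of 14 regions missing, and all 5 were among the 6 inside the gene. The exception was 85373409 to 85374614, 12.3 kb from the annotated start, at percentiles 42.2 and 63.4 in sgScramble and in all 4 lists. Toward the 3′ end 4 were missing in a row: 85362116 to 85362432 (28.5 and 29.6), 85356413 to 85357024 (54.0 and 39.7), 85339939 to 85340454 (11.0 and 33.5) and 85329380 to 85330137 (82.0 and 84.2). The last had folds of 5.45 and 5.55 and was the highest-ranked missing region of the 9 genes by its mean percentile. The fifth, 85379378 to 85379773 (17.4 and 42.7), lies 3′ of the upstream start printed above and does not overlap its window. Outside the gene no region was missing: the 2 nearest to Orc6, an origin recognition gene, were in all 4 lists, and so were 4 of 6 in both sgScramble lists nearest to 4921524J17Rik. Of the Orc6 regions, 85298715 to 85300398 also overlapped Vps35 and lay within 1 kb of an end of that gene. The 1 region given to Vps35 as nearest was in sgScramble replicate 2 alone.

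Igsf3 (chromosome 3, 101376672 to 101463060, plus strand) had 5 of 17 regions missing and 9 in all 4 lists. None of the 5 stood high: percentiles ran from 10.6 to 41.4. The region 101406023 to 101406481, 29.6 kb from the start, stood at 19.8 and 24.5 by fold and had −log10 q values of 10.5 and 10.9. The others were 101448431 to 101449210 in the gene body, 101366045 to 101366555 upstream, and 101486266 to 101486657 beside 101488337 to 101488641 downstream. Regions at both ends of the gene were in all 4 lists, the start region being 2415 bp wide at percentiles 35.9 and 51.2. Its strongest region, 101493706 to 101494603 past the end (91.2 and 93.3), was common to all lists too.

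Acsf3 (chromosome 8, 122775470 to 122817887, plus strand) was the shortest of the 9 genes, 42.4 kb, and 4 of its 6 missing regions lay outside it. Each sgScramble list held 18 regions and each sgArid1a list 10. Upstream stood 3 missing regions, at 122737064 to 122738470 (13.1 and 32.7), 122745745 to 122746750 (11.2 and 8.46) and 122750403 to 122750999 (7.44 and 10.7), all within the non-coding gene C230057M02Rik. Inside the gene were 122804553 to 122805936 (33.4 and 29.0, with −log10 q values of 10.3 and 9.27) and 122814387 to 122815265 (2.11 and 2.09). The sixth, past the end, was 284 bp wide (122824675 to 122824958, 4.53 and 24.9). The start region and 8 others were in all 4 lists. The 5 regions of both sgScramble lists nearest to Cdh15, the M-cadherin gene, included 0 missing. Among them, 122848235 to 122849721 and 122864616 to 122867604 lie at ends of Cdh15. The share was 12.9% over all regions and 3.08% over those within 1 kb of a protein-coding gene end.

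Tasp1 (chromosome 2, 139833479 to 140066847, minus strand) had 5 of 13 regions missing (38.5%) and 6 in all lists. That share was the highest of the 9 with all libraries, but without sgArid1a replicate 1 it stayed at 38.5% and Gnao1 stood at 8 of 19 (42.1%). Without sgScramble replicate 2 it was 6 of 16 (37.5%) and Prune2 stood at 8 of 20 (40%). The strongest missing region lay 216.9 kb from the start at 139849749 to 139850231, with percentiles of 73.5 and 71.7 and folds of 4.99 and 4.85. Next to it stood 139879652 to 139880179 (51.0 and 22.8). The others were 140024681 to 140025877 (34.7 and 13.1), 140078412 to 140078766 upstream (59.2 and 44.4) and 139797569 to 139798279 downstream (37.9 and 49.3). The next region toward the 3′ end after the strongest, 139840849 to 139842364, was in all 4 lists. It stood at 95.1 and 85.4 in sgScramble and at 38.0 and 51.9 in sgArid1a, ranks within lists of different length that show no change by themselves. The start region 140065865 to 140067202 was in all lists at 84.1 and 82.4.

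Prune2 (chromosome 19, 16955668 to 17223963, plus strand) had 6 of 18 regions missing and 10 in all lists. Up to the midpoint of the gene 3 of 7 regions were missing and beyond it 0 of 4. The strongest, 17011372 to 17011899, stood at percentiles 64.6 and 93.8 with folds of 4.58 and 6.36. With it in the gene were 16970626 to 16970921 (15.1 and 39.5) and 16997905 to 16998926 (25.9 and 33.8). Outside the gene were 16925910 to 16926941 upstream (24.9 and 28.7) and 17225620 to 17226310 (16.9 and 34.9) and 17244731 to 17245198 (67.7 and 54.6) downstream. The gene also held the strongest region of all 9 windows in both sgScramble lists, 17163252 to 17163960 at 98.4 and 99.5, which was in all 4 lists.

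By rank and width the missing regions of the 9 genes lay close to missing regions elsewhere. Their median percentile, averaged over the sgScramble lists, was 27.4, against 27.8 over all 9388 missing regions. Regions of the 9 genes in all 4 lists had a median of 59.4 (65.5 over all), and those in 1 sgArid1a list 33.8 (36.4). The median length covered in the sgScramble lists was 530.5 bp at missing regions and 988.5 bp at regions in all lists, and 469.5 and 973 bp over the genome. At each of the 9 genes the missing regions had the lower median percentile and the lower median length. Both sgScramble lists ranked 48 of the 61 at or below their 50th percentile, 7 were on opposite sides and 6 were above it in both (9.84%, against 11.9% of all missing regions). Those 6 were the regions of Mylk3 at 56.6 kb, Tns1 at 260.0 kb, Tasp1 at 216.9 kb, Prune2 at 56.0 and 289.3 kb and Chn2 24.2 kb upstream.

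**Figure D4:**
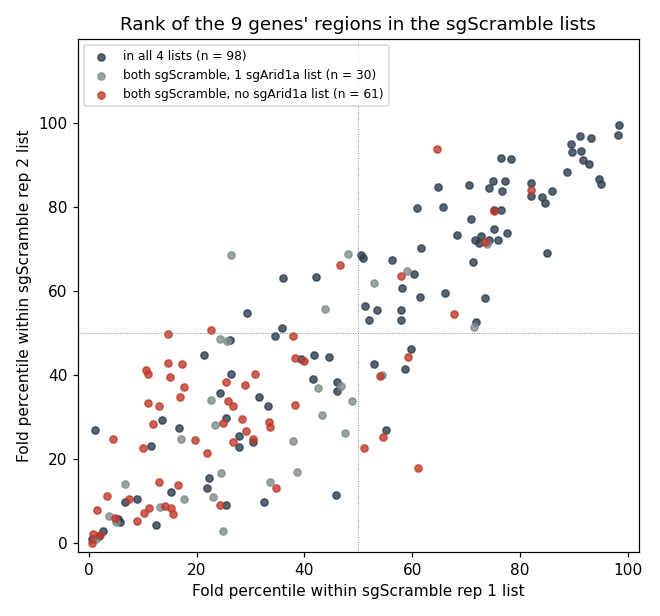
Each point is a region held by both sgScramble lists, placed by the percentile of its fold within sgScramble replicate 1 (x axis) and replicate 2 (y axis), with 98 regions in all lists (dark), 30 in 1 sgArid1a list (grey) and 61 missing (red). Most red points lie in the lower left, where dark and grey points also lie, and 6 lie above 50 on both axes.

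Significance of the peaks gave another order than fold. Of the 61 missing regions 9 had a −log10 q of at least 5 in both sgScramble lists (14.8%, the same share as over all missing regions, 14.8%). These were 2 at Tns1 (198.0 and 260.0 kb from the start) and 1 each at Chn2, Acsf3, Rapgef2, Tasp1, Mylk3, Prune2 and Igsf3. Gnao1 had none. When every list was trimmed to the length of the shortest by −log10 p, 24 of the 61 were still missing (39.3%), against 39.4% of all missing regions. By gene, 5 of 11 at Chn2, 5 of 7 at Tns1, 3 each at Rapgef2, Tasp1 and Mylk3, 2 at Prune2 and 1 each at Gnao1, Acsf3 and Igsf3 were still missing. With the trimmed lists the count over the 9 genes was 26 of 134 regions (19.4%), beside 6.97% over all regions. Both numbers lay below those of the lists as called, and the shares they are set against move with them. With peaks of −log10 q of at least 5 alone, the 9 genes had 31 of 99 missing (31.3%) beside 21.5% over all regions. Keeping the 50% of peaks with the higher fold in each list, it was 15 of 65 (23.1%) beside 15.1%.

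The count rose with each library left out, at the 9 genes and over the genome alike. A missing region then needs a peak in only 1 sgScramble list or absence from only 1 sgArid1a list. That looser definition by itself favours a higher count, so the rise is not read as a trait of any library. Without sgScramble replicate 1 or 2 the 9 genes had 77 of 211 and 75 of 209 regions missing, beside 20.8% and 18.9% over all regions. Without sgArid1a replicate 1 or 2 it was 69 of 189 and 83 of 190, beside 17.4% and 23.1%. With peaks within 1 kb merged it was 61 of 186, beside 12.7%, and with a 50% overlap in place of merging 64 of 169, beside 17.3%. When presence was held to the upper 50% of both sgScramble lists but absence to the full sgArid1a lists, a setting chosen after seeing the data, 6 of 65 regions were missing (9.23%), beside 3.05%. Gained counts ran from 0 to 8 over these settings. The shares in brackets here are those over all regions. The 9 genes had 0 of 56 with the stricter q (0.270%) and 3 of 50 with the upper 50% (4.25%). With equal lengths the count was 4 of 98 (4.37%). With peaks within 1 kb merged it was 1 of 100 (1.43%), and with a 50% overlap 2 of 97 (1.90%). Without sgScramble replicate 1 or 2 the 9 genes had 1 of 100 (2.85%) and 2 of 101 (3.17%). Without sgArid1a replicate 1 or 2, where a gained region needs only 1 sgArid1a list, they had 8 of 137 (8.01%) and 7 of 119 (7.52%).

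**Figure D5:**
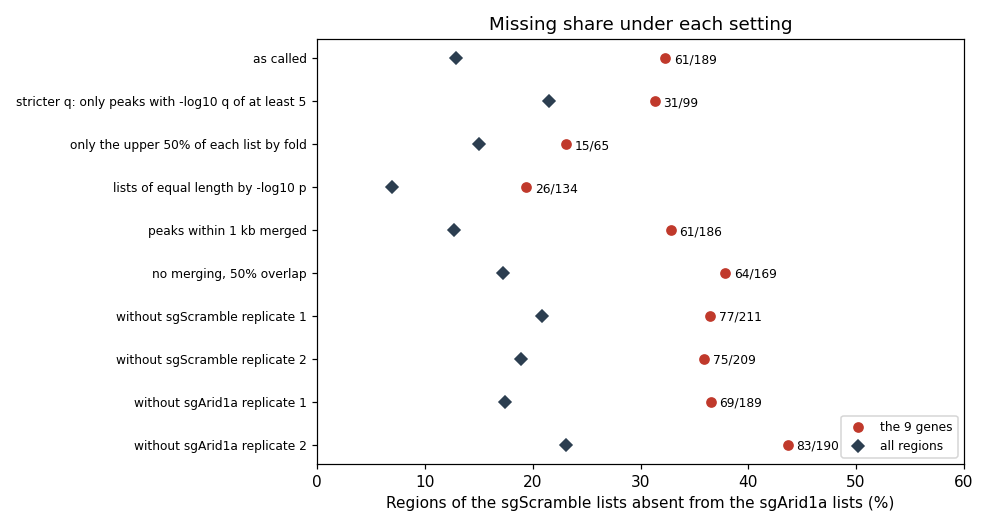
Rows are ways of treating the lists; red circles give the missing share of sgScramble regions at the 9 genes, with counts, and dark diamonds that over all regions (%). The 10 ways plotted leave out the narrower windows and the setting chosen after seeing the data. Over them the share at the 9 genes runs from 19.4% with lists of equal length to 43.7% without sgArid1a replicate 2. It lies above the diamond in each row, which the choice of the genes fixes for the lists as called. The other rows draw on the same lists that chose the genes and are no independent check of that gap.

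The 9 genes differed in length, and their windows held many regions. Their median length was 214.3 kb, against 17.2 kb over all protein-coding genes, and 6 of them stood at percentiles 93.8 to 97.0 of length. Acsf3, Mylk3 and Igsf3 were shorter, at percentiles 74.0, 81.4 and 86.8. The windows held a median of 21 regions against 10. Length and number of regions were not tested as features of the choice. When each region was given to its nearest gene end alone, Gnao1, Chn2, Acsf3 and Rapgef2 had 6 missing regions and the other 5 genes had 5. Not among the 9 but at the same counts were Gsk3b with 6 of 14 and Dst, Iqsec1, Antxr1, Yap1 and Mgat5 with 5 each. Just outside were 52 genes with 4. The highest shares among those were 4 of 5 regions at 2210408I21Rik, Dnaja2, Gabrb2 and Nxpe2 and 4 of 6 at Galnt1, the first by symbol of its ties. By whole windows, 174 protein-coding genes had at least 5 missing regions, 40 at least 7 and 4 at least the 11 of Chn2.

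Genes with an equal or similar tally stood elsewhere in the genome. By the summed difference in missing regions and in regions of both sgScramble lists, the nearest to Gnao1 was Suclg2 (6 of 19), to Chn2 Iqsec1 (8 of 32), to Rapgef2 Lpp (10 of 30) and to Tns1 Hdac9 (6 of 29). Tasp1 was matched exactly by Fads6, Mylk3 by Pi4ka, Prune2 by Csnk1g1 and Igsf3 by B4galnt3, and B4galnt3 (5 of 17) was also nearest to Acsf3. The largest summed difference, 3, was that of Chn2. Ties were taken by symbol. For Acsf3 13 genes were equally near, for Igsf3 6, for Prune2 5 and for Chn2, Tasp1, Tns1 and Mylk3 3 each.

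Genes with related functions had between 8.80% and 13.3% of their regions missing, list by list, beside 12.9% over all regions. The share was 12.0% over regions inside or within 50 kb of a protein-coding gene. In 9 lists of 97 genes, which leave out the 9 themselves, 71 genes had at least 1 missing region in their windows, beside 10029 of all 21883 protein-coding genes. Of the 97, 3 had 5 or more, beside 174 of all. The number of regions per window was not matched in these counts of genes, so nothing is read from them. Of the lists, 8 lay below the share over all regions and 1 above it. The interval of each list, given below, includes that share, and nothing is read from the tally. Beside Gnao1, G protein alpha subunits had 16 of 120 regions missing (13.3%, 95% Clopper-Pearson interval 7.82% to 20.7%). Gnaq had 3 of 20 missing, and Gnaz, Gnat1, Gnat3, Gna12 and Gna13 had 2 each, while Gna11, Gnai3 and Gnat2 had 0 of 13, 9 and 7. Beside Chn2, GTPase-activating proteins of Rac and Cdc42 had 16 of 145 missing (11.0%, 6.44% to 17.3%). Arhgap25 had 4 of 17, Srgap2 3 of 25 and Arhgap24 2 of 2, while Racgap1, which acts in cell division, had 0 of 11.

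Rap exchange factors, Rap GTPases and Rap GTPase-activating proteins, the pathway of Rapgef2, had 28 of 242 regions missing (11.6%, 7.83% to 16.3%). Rap1a had 5 of 14 missing, the GTPase-activating protein gene Sipa1l2 5 of 21 and Rapgef4 4 of 33, while Rap1gap had 0 of 13, Rasgrp2 0 of 11 and Rap2a 0 of 6. Focal adhesion genes, related to Tns1, had 28 of 243 missing (11.5%, 7.79% to 16.2%). Tns3, a second tensin, had 6 of 28, and Ptk2 (focal adhesion kinase) and Tln2 (talin 2) had 3 of 25 and 3 of 27. Fermt3, Ilk and Zyx had 0 of 14, 8 and 8. Genes of myosin light chains and of their kinases and phosphatase, related to Mylk3, had 11 of 125 missing (8.80%, 4.48% to 15.2%). Mylk, the smooth muscle kinase, had 4 of 17 and Ppp1r12a 2 of 9. Myl9, Ppp1r12c and Myl12b had 0 of 9, 9 and 6.

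Among the EWI immunoglobulin genes and tetraspanins related to Igsf3, 7 of 70 regions were missing (interval 4.12% to 19.5%). Cd81 had 3 of 12 and Ptgfrn 2 of 5, and Igsf8, Cd101 and Tspan7 1 each, while the tetraspanin genes Cd9, Cd82 and Cd151 had 0 of 15, 12 and 10. In the list of mitochondrial fatty acid synthesis and malonate metabolism, related to Acsf3, 9 of 92 regions were missing (9.78%, 4.57% to 17.8%). Cbr4 had 2 of 8 and H2-Ke6 (also called Hsd17b8) 2 of 11. Mlycd, malonyl-CoA decarboxylase, had 0 of 13, Mecr 0 of 9 and Lias 0 of 3. Substrates of taspase 1 and their partners had 7 of 60 missing (11.7%, 4.82% to 22.6%), with 3 of 14 at Kmt2a, the best known substrate, 1 each at Kmt2b, Gtf2a1l, Men1 and Hcfc1 and 0 of 4 at Gtf2a1. Genes with a DHH or BCH domain, related to Prune2, had 5 of 51 missing (9.80%, 3.26% to 21.4%), with 2 each at Atcay and Arhgap8, 1 each at Prune1 and Bnipl and 0 of 8 at Bnip2. Intervals cover counting error over regions only, and regions of neighbouring genes are shared.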

How the data were processed

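The authors deposited a broad peak list for each library. Per peak, the deposited columns used were the fold (a ratio of signal to background) and the −log10 of the p- and q-values. The deposited score equalled 10 times the −log10 q rounded down to a whole number in at least 99.99% of peaks and was not used further. The submitters' processing notes name STAR 2.5.3a, HOMER, GRCm38 and mm10, with no roles. For the peak caller and any Tn5 shift, nothing is given in the sources used here. Depth is unknown. Coordinates are 1-based, GRCm38.

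Peaks overlapping by at least 1 bp were merged into regions on chromosomes 1 to 19, X and Y. Fold was ranked within a list, the highest peak standing for a region. Genes, strands and start sites came from RefSeq tables of GRCm38.p6, and all 97 related genes matched, Hsd17b8 through a synonym. Named were the 9 genes, their neighbours (1 is not reported here), the genes nearest to them in counts, those at and just below the choice and, per related list, up to 3 genes with the most missing regions (more where tied) and up to 3 with none. Members and lists were chosen with earlier results of these data known. No test was run. Merging was tested on simulated data. Alternatives were a stricter q, upper ranks, equal lengths, other merging, other windows and leaving out each library. Python 3.11.15, numpy 2.4.6, pandas 2.3.3, SciPy 1.17.1 and matplotlib 3.10.9 were used.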

Additional observations from a re-analysis of the deposited data

How the results depend on the processing

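The missing count of the 9 genes (61) stayed within 1.5 times with peaks merged within 1 kb, a 50% overlap without merging, the gene body alone and the nearest gene end. It was 31 with a −log10 q of at least 5, 15 with the upper 50% of each list, 26 with lists of equal length and, in a setting chosen after seeing the data, 6 when presence was held to the upper 50% of the sgScramble lists and absence to the full sgArid1a lists. Without each library in turn, where a missing region has to meet fewer conditions, it ran from 69 to 83. The gained count (1) was 0 with the stricter q, 3 with the upper 50%, 4 with lists of equal length, 2 with a 50% overlap and 0 in gene bodies alone. Without a library it ran from 1 to 8, the 8 without sgArid1a replicate 1, 7 without sgArid1a replicate 2 and 2 without sgScramble replicate 2. The missing share over all regions (12.9%) was 21.5% with the stricter q, 15.1% with the upper 50%, 6.97% with equal lengths, 17.3% with a 50% overlap and 3.05% in the added setting, and 17.4% to 23.1% without a library. Counts of single genes moved by over 1.5 times at 8 of 9 genes with equal lengths and with the upper 50%, at 6 with the stricter q, at 9 in the added setting, at 4 in gene bodies alone and at 1 by nearest gene end (Chn2, 11 to 6). Leaving out a library moved Rapgef2 from 9 to 15 (without sgScramble replicate 1) and Tns1 from 7 to 13 (without sgArid1a replicate 2). No paired analysis was possible because the counts come from no test. Depth is unknown and limits every absence: a peak absent from a list may lie below its threshold.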
